A study of Mus musculus with 9 samples.

Results

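Intergenic sites bound by both RelA and RelB are described here: 897 of the 1860 sites (48.2%) at which all 4 ChIP-seq libraries of TNF-treated cells had a peak. Overlapping peaks of the 4 libraries were merged, and a site was kept when its centre lay more than 1 kb from every protein-coding gene start and inside no protein-coding gene. Of the other sites with 4 peaks, 223 lay within 1 kb of a start (promoter sites) and 740 inside a gene (gene-body sites). Sites were chosen by the presence of peaks in both RelA and RelB libraries, so that binding by both factors at 6 h is the selection and not a finding. Merging the lists gave 14781 sites with a peak in at least 1 library, and those without 4 peaks were not members.

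Chromatin came from NfkB2-/- MEFs, embryonic fibroblasts of mice that lack the gene for the NF-κB precursor p100, immortalised by a 3T3 protocol. Cells were untreated (0 h) or kept in 10 ng/ml TNF for 6 h, and the deletion was common to every library, so that no wild-type cell was compared. For ChIP an anti-RelA antibody (p65 in the labels) or an anti-RelB antibody was used, with 2 libraries per antibody and time and an input library of the same genotype as the background. The labels give no separate culture for each library, and p-values of limma and of the permutation tests therefore measure the spread between libraries, which may be technical. Fisher's exact tests count sites, and their p-values cover counting error over sites and no spread between libraries.

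NF-κB factors act as dimers. RelA bound to p50 is held in the cytoplasm by IκB proteins and is released within minutes of TNF through the canonical IKK2 pathway. RelB is classically tied to the non-canonical pathway, in which p100 is processed to p52, and p100 also restrains RelB in the cytoplasm. Both factors recognise κB elements, short sequences with a G-rich and a C-rich end. A large part of NF-κB binding in stimulated cells falls outside promoters, at distal elements that include enhancers, which act on genes at a distance and often hold elements for other factors such as AP-1.

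The stretches below show what such a site looks like in the mm9 genome. They were picked because they belong to the strongest sites, to sites near known NF-κB target genes, or to the sites where RelA and RelB differed most. Each is 81 bases of the plus strand, 5′ to 3′, centred on the κB match closest to the site centre or, without a match, on the site centre. Capitals mark matches of either strand to the 10-base κB consensus, and overlapping matches are joined. Each line is named for the nearest protein-coding gene or the listed gene.

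Ripk2 (chr4:16095772-16095852): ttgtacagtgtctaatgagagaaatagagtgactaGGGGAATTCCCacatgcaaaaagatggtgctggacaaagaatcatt
Junb (chr8:87500520-87500600): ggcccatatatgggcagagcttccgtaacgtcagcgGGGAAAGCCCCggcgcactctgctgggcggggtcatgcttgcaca
Cd69 (chr6:129186824-129186904): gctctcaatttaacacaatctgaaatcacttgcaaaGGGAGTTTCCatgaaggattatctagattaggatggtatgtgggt
Csf1 (chr3:107578859-107578939): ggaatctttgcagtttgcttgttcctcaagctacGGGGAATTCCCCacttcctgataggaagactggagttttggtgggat
Ccl2 (chr11:81832978-81833058): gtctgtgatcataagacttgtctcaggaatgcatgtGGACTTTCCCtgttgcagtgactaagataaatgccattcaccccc
Nos2 (chr11:78700682-78700762): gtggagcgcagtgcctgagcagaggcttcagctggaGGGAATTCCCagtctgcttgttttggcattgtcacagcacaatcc
Bcl3 (chr7:20412288-20412368): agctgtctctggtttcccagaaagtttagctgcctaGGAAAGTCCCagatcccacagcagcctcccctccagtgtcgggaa
Lrp12 (chr15:39852391-39852471): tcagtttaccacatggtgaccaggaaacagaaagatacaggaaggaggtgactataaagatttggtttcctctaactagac
Ccl17 (chr8:97331485-97331565): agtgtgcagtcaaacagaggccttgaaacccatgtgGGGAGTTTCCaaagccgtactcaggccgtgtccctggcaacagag
Spsb1 (chr4:149332290-149332370): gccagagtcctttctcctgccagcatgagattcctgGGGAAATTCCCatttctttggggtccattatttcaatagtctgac
Tbl1xr1 (chr3:21804766-21804846): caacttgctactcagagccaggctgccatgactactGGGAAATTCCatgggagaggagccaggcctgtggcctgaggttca

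The Ripk2 and Csf1 stretches carry a run of G and C around AATT that can be read as κB on both strands and in more than 1 register. Cd69 and Ccl17 share the element GGGAGTTTCC, and Spsb1 and Tbl1xr1 share GGGAAATTCC. The Lrp12 stretch holds no match.

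Peak lists at 6 h held between 5192 and 7052 peaks and between 120352 and 162105 ChIP reads in peaks per library, while total reads are unknown. The strength of a site is the log2 fold of ChIP over scaled input reads in the strongest window of its peak, the highest where a library had several. Across the 897 intergenic sites the median log2 fold was 3.21 (range 1.67 to 5.64) in RelA replicate 1 and 3.09 (1.52 to 5.55) in RelA replicate 2. For RelB replicates 1 and 2 it was 3.26 (1.74 to 5.24) and 3.30 (1.70 to 5.30). The median number of ChIP reads in the peaks of a site was between 32 and 39 per library and that of input reads between 9 and 11. These are totals over the peaks, whereas the fold comes from the strongest window alone, whose input reads are not given here. At the Ripk2 site, RelA replicate 1 had 101 ChIP and 18 input reads in the peak at a log2 fold of 5.64. The fold is thus not the ratio of these totals, and counting error is part of every value. No library stood apart from the others in these levels.

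Before TNF, no intergenic site overlapped a peak in any of the 4 lists at 0 h, which held 182 and 194 peaks for RelA and 35 and 14 for RelB. None had such a peak within 500 bp either. With 0 of 897 sites, the Wilson 95% interval reaches 0.426%, and it covers counting error only. For RelB at 0 h, 1 of 223 promoter sites and 2 of 740 gene-body sites had a peak (Fisher's exact test, two-sided, intergenic against each, adjusted p = 0.327 for both), and for RelA none had one. The lists name a site only above the caller's thresholds, and weaker binding before TNF cannot be seen in them.

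The strongest intergenic site lay 5021 bp upstream of Ripk2, the kinase that signals downstream of NOD receptors, at chr4:16095759-16095871. Its log2 folds were 5.64 and 5.55 with RelA against 5.0 and 5.09 with RelB. Both RelA values were above both RelB values. The site is also inside A530072M11Rik, a long non-coding RNA gene. A weaker site 35296 bp upstream of Ripk2 had 4.19 and 4.17 with RelA against 3.80 and 3.08 with RelB.

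The second site lay 2094 bp downstream of the start of Junb, a subunit of the AP-1 factor and itself a known TNF-induced gene, at chr8:87500423-87500624. It had log2 folds of 5.26 and 5.09 with RelA against 5.03 and 5.13 with RelB, and the groups overlapped. On the other side of the gene, 2328 bp upstream of the start, a site with 4 κB matches had 2.57 and 3.27 with RelA against 3.35 and 3.14 with RelB. The third was 38676 bp downstream of the start of Cd69, an early activation receptor of lymphocytes, and inside the long non-coding RNA gene 2310001H17Rik. Its values were 4.91 and 5.04 with RelA against 5.04 and 5.29 with RelB.

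The remaining 7 of the 10 strongest sites lay near Gm9726, Extl2, Hrh4, Tmem176b, D730045B01Rik, D4Bwg0951e and Ccdc90b, at distances from 11558 to 417451 bp from the nearest protein-coding start. A nearest gene gives a position and not a target. The site near Ccdc90b, at chr7:99642092-99642189, was the one of the 10 with the largest difference between antibodies, 4.57 and 4.06 with RelA against 5.24 and 5.30 with RelB. None of the 10 passed the test of RelA against RelB (limma, adjusted p from 0.164 to 0.871), and 9 of 10 had a κB match within 100 bp of the centre.

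**Figure D1:**
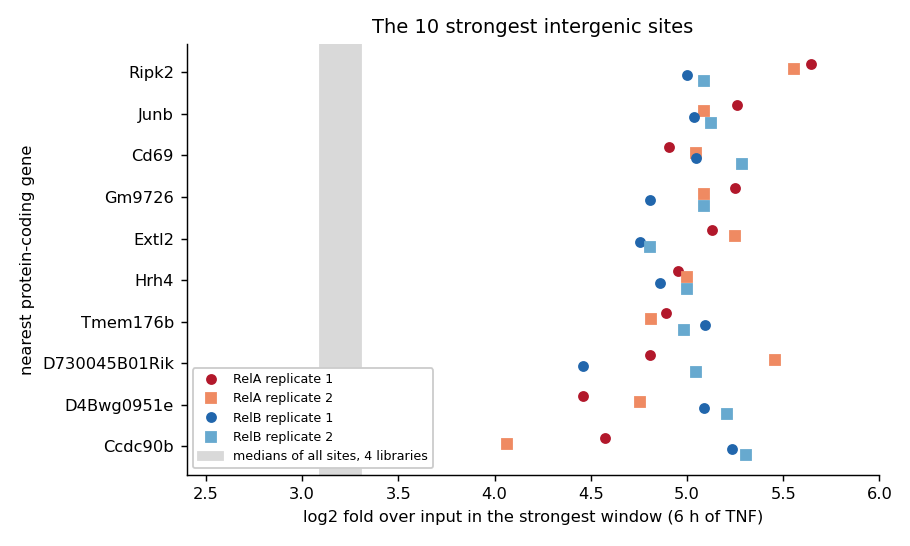
The log2 fold over input (horizontal axis) of the 10 strongest intergenic sites, named for the nearest protein-coding gene, with 1 point for each of the 4 libraries at 6 h. The grey band spans the medians of all 897 sites in the 4 libraries (3.09 to 3.30), and every point lies above the highest of these medians.

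The median strength of intergenic sites differed from that of promoter and gene-body sites by less than the spread between libraries. Their median log2 fold minus that of promoter sites was -0.02 and -0.08 for RelA libraries, 0.07 and 0.08 for RelB libraries, with a mean of 0.01 ± 0.08 (SD, n = 4; exact sign permutation test, two-sided, p = 0.875). Against gene-body sites the differences were 0.00, -0.08, 0.01 and 0.00, with a mean of -0.02 ± 0.04 (SD, n = 4; exact sign permutation test, two-sided, p = 1). With 4 libraries this test cannot go below 0.125. The difference to promoter sites was lower in both RelA libraries than in both RelB libraries, by 0.12 (p = 0.333 in a two-sided exact permutation test, which 2 libraries against 2 cannot go below). For gene-body sites the corresponding contrast was 0.05 in the same direction (exact permutation test, p = 0.333).

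Distances from genes were wide. The median intergenic site lay 48427 bp from the nearest protein-coding start (quartiles 16315 and 132688 bp), 299 sites (33.3%) were more than 100 kb away and 32 more than 500 kb. The farthest, 1214819 bp from the start of Cited2, a CBP/p300-binding regulator, is the outermost of 4 sites assigned to that gene. More sites were upstream of the nearest start (590, 65.8%) than downstream (307), and the class leaves out gene bodies, which lie downstream of starts. Strength differed little with distance: the median of the mean log2 fold was 3.31 for the 77 sites at 1 to 5 kb, 3.21 for 378 at 5 to 50 kb, 3.14 for 143 at 50 to 100 kb, 3.19 for 267 at 100 to 500 kb and 3.05 for 32 beyond. The share with a κB match was 74.0%, 73.3%, 71.3% and 67.4% from the nearest bin to that of 100 to 500 kb, and 75% at the 32 sites beyond, with intervals that overlapped. These are descriptions of sites and carry no test.

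**Figure D2:**
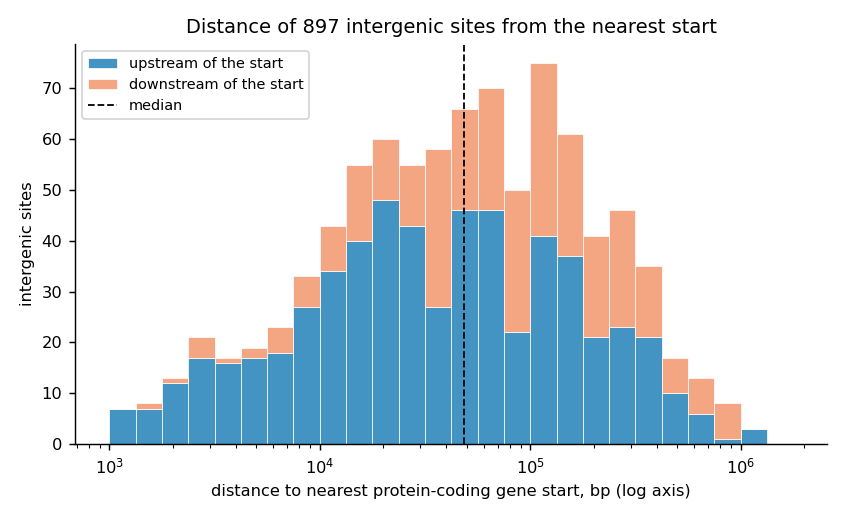
Number of intergenic sites (vertical axis) by distance of the centre from the nearest protein-coding gene start in bp (log axis), split by side of the start. The dashed line marks the median of 48427 bp, and upstream sites outnumber downstream sites most at the short distances.

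The limit of 1 kb cuts through a continuous range. The 3 sites just outside it lay 1000.5 bp upstream of Chchd1, 1018.5 bp upstream of Slc1a5 and 1077.5 bp upstream of Pde9a, with mean log2 folds of 2.71, 3.31 and 2.88. Just inside it, and hence promoter sites, were sites 984.5 bp from the start of Rhbdl3, 980.5 bp from that of Pdgfra and 980 bp from that of Micalcl, with 2.46, 3.85 and 2.75.

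Sequence was not used to choose the sites and could be compared between classes. A κB match within 100 bp of the centre was present at 640 of 897 intergenic sites, or 71.3% (Wilson 95% interval 68.3 to 74.2%), and 763 sites (85.1%) held a match somewhere in the merged site. Windows of the same length 1000 bp to either side held a match in 10.5% of cases. Promoter sites had a match in 78.5% and gene-body sites in 75.5%, with 16.6% and 13.9% in their flanks. Neither difference passed after adjustment over the 8 tests of sequence and 0 h peaks (Fisher's exact test, two-sided, p = 0.0355 and adjusted p = 0.142 against promoter sites, p = 0.0568 and adjusted p = 0.152 against gene-body sites). Against promoter sites the call changed with the libraries: without RelA replicate 1, RelA replicate 2 or RelB replicate 1 the adjusted p was 0.00273, 0.00524 and 0.0374, with differences of -10.6, -10.1 and -8.2 percentage points.

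AP-1 matches separated intergenic sites from promoter sites. The AP-1 consensus TGANTCA, which is its own mirror on the other strand, occurred within 100 bp of the centre at 160 of 897 intergenic sites (17.8%, 15.5 to 20.5%) and at 10 of 223 promoter sites (4.48%, 2.45 to 8.06%). The odds ratio was 4.62 (Fisher's exact test, two-sided, p = 6.01e-08, adjusted p = 4.80e-07). Flanking windows held the consensus in 6.91% of cases at intergenic and 6.73% at promoter sites, so that intergenic centres exceeded their flanks and promoter centres did not. Gene-body sites had 18.4% (adjusted p = 1). The excess over promoter sites was 7.58 percentage points within 50 bp and 22.2 within 250 bp, and stayed past the threshold in both.

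Base composition moves with that comparison. The median GC content of the window of 100 bp to either side was 46.8% at intergenic sites, 60.2% at promoter sites and 48.8% at gene-body sites, and its part in the AP-1 difference was not tested. Among intergenic sites, the 160 with an AP-1 match had the same median GC as the 737 without (46.8%), and the κB share was 70.0% and 71.6% in these groups. Their strength did not stand apart, with medians of 3.12, 3.11, 3.32 and 3.30 in the 4 libraries against 3.21, 3.09, 3.25 and 3.30. Of the sites with AP-1, 48 had no κB match.

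**Figure D3:**
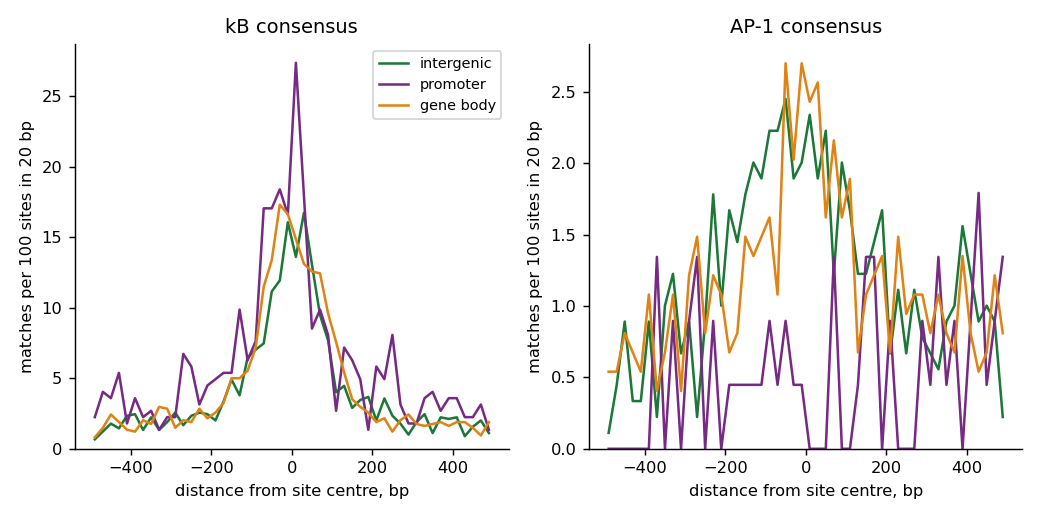
Matches per 100 sites in bins of 20 bp (vertical axes) by distance from the site centre (horizontal axes) for the κB consensus, left, and AP-1 consensus, right, at intergenic, promoter and gene-body sites. κB matches peak at the centre in every class, reaching 16.7 per 100 intergenic sites, whereas AP-1 matches rise at intergenic and gene-body centres and the promoter curve, from 223 sites, stays low and uneven.

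Mean strength differed little with the number of κB matches, while the balance of the antibodies moved. Intergenic sites with 0, 1, 2 and 3 or more matches within 100 bp numbered 257, 381, 181 and 78, and their median mean log2 folds were 3.15, 3.23, 3.20 and 3.16. In the RelA libraries the medians went from 3.15 and 3.06 without a match to 3.33 and 3.21 with 3 or more. The RelB libraries did not move together, with 3.18 to 3.11 in RelB replicate 1 and 3.23 to 3.26 in RelB replicate 2. After centring, RelA was relatively higher at 42.8%, 40.7%, 55.2% and 60.3% of the sites with 0, 1, 2 and 3 or more matches, which is a description with no test. Among the 224 strongest sites 72.8% had a match and among the 225 weakest 68.4%, with overlapping intervals of 66.6 to 78.2% and 62.1 to 74.2%. The largest number was 5 matches, at the sites near Csf1, the macrophage growth factor, Tyk2, a kinase of cytokine receptors, and Gypc, a red cell membrane protein. The Csf1 site at chr3:107578833-107578968 had log2 folds of 4.64 and 5.21 with RelA against 4.32 and 4.46 with RelB.

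The 1003 κB matches within 100 bp were spelled in 158 ways, counting both strands as the same. GGGACTTTCC, the form known from the immunoglobulin κ enhancer, was the most frequent at 90 sites (10.0%, against 0.167% of flanking windows). GGGGAATTCC and GGGGATTTCC followed at 61 sites each, then GGGAATTTCC at 49, GGGGCTTTCC at 40 and GGGAGTTTCC at 39.

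The balance of the antibodies differed between spellings of the element, and some of these leans recurred at promoter and gene-body sites while others did not. Balance is RelA minus RelB in log2 fold after each library was centred on its median over all 1860 sites, and it was on the RelA side at 412 of 897 intergenic sites (45.9%), at 62.8% of promoter sites and at 48.8% of gene-body sites. Of sites with the palindrome GGGAATTCCC, 16 of 17 were on the RelA side, with a median difference of 0.36. At the 24 promoter and gene-body sites with this element, which are other places in the same libraries, 22 were on that side, with a median of 0.23. GGGGTTTTCC had 25 of 34 intergenic sites on the RelA side and 22 of 26 elsewhere, and GGGAAATTCC 26 of 38 and 31 of 39.

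Other spellings leaned to RelB. GGGAGTTTCC was on the RelA side at 11 of 39 intergenic sites (median -0.25) and at 10 of 34 other sites (-0.12). GGGACTTTCC was there at 29 of 90 intergenic sites (-0.19) and 37 of 97 others (-0.14), and GGGGCTTTCC at 15 of 40 (-0.20) and 17 of 47 (-0.09). Not every lean recurred: GGGTTTCCCC was on the RelA side at 12 of 13 intergenic but 12 of 23 other sites, and GGGTTTTTCC at 9 of 10 but 2 of 8. GGGGAATCCC was on the RelA side at 6 of 16 intergenic but 17 of 25 other sites. For GGGGAAATCC it was 4 of 10 but 19 of 23. The intergenic shares of both, 37.5% and 40%, are near the 45.9% of all intergenic sites, and so are no clear leans to RelB. The 37.5% of GGGGCTTTCC is equally near that share. These elements were singled out after their values were seen, a site with several matches counts under each, and the medians are smaller than the confidence interval of a single site, so they stand as a description with no test.

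Site by site, the number of differences between RelA and RelB depended on the measure of strength. The median difference over intergenic sites was -0.04, and 862 of 897 (96.1%) were within a factor of 2. That share was 95.4% at gene-body sites and 91.0% at promoter sites. The median half-width of the 95% interval was 0.63 on the log2 scale, so that smaller differences at a single site could not be seen. The rule itself removes the sites with the largest differences, those called for 1 antibody alone. In the limma fit over all 1860 sites, 11 (0.591%) had an adjusted p below 0.05, 8 with RelA higher (0.43%) and 3 with RelB higher (0.161%). Only 1 of 897 intergenic sites passed, with RelB higher, against 4 of 223 promoter sites, all with RelA higher, and 6 of 740 gene-body sites, and these shares were not tested against each other. A p below 0.05 before adjustment was found at 139 intergenic sites (15.5%), near the share of 16.8% over all 1860. With reads of the fullest window in place of the fold, limma called 60 intergenic sites (6.69%), 19 with RelA and 41 with RelB higher, against 7.58% of all sites. Without RelA replicate 2 it called 10 of 1098 intergenic sites (0.911%) against 1.39% of all. No other single library left out gave a call at an intergenic site. 

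That site lay 76891 bp upstream of Lrp12, a member of the LDL receptor family, at chr15:39852199-39852663. Its log2 folds were 2.48 and 2.49 with RelA against 4.65 and 4.61 with RelB, a difference of -2.06 ± 0.26 (SE; limma, Benjamini-Hochberg adjusted p = 0.0163). Its peaks held 19 and 18 ChIP reads with RelA against 103 and 103 with RelB. The groups were far apart, and no κB or AP-1 match lay within 100 bp. The peaks behind these values were not at the same bases, however. RelA replicate 2 had its peak at 39852316-39852357 and RelB replicate 2 at 39852199-39852277, which do not overlap and were joined through the RelB replicate 1 peak. RelA replicate 1 had a further peak of log2 fold 3.21 that ended 46 bp before the site. Without RelA replicate 1 or RelB replicate 2 the adjusted p of this site was 0.0524 and 0.435 at differences of -2.00 and -2.17. It was 0.00646 without RelA replicate 2 and 2.71e-05 with reads of the fullest window, where the difference was -1.36. Without RelB replicate 1 its peaks no longer formed a site of 3 libraries.

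Joining of peaks through a neighbour was not rare. At 651 intergenic sites (72.6%) the peaks of all 4 libraries shared at least 1 bp, and at 246 (27.4%) they did not. The 10 strongest sites all had a shared stretch. When only sites with a shared stretch were kept, a choice made after seeing the data, no intergenic site of 651 passed in limma after adjustment. None of all 1357 such sites passed either. Before adjustment 94 intergenic sites (14.4%) had a limma p below 0.05, near the share of 15.3% over all 1357.

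The next largest differences missed the threshold on the log2 fold. Towards RelB, a site 2794 bp upstream of Ccl17, a chemokine for T cells, at chr8:97331396-97331723, had 2.89 and 2.12 with RelA against 4.0 and 4.25 with RelB (difference -1.54, limma adjusted p = 0.0502). Its peaks held 34 and 17 ChIP reads with RelA against 34 and 46 with RelB. RelA replicate 1 and RelB replicate 1 thus had equal ChIP totals, and both had 8 input reads in the peak. The site carries GGGAGTTTCC and is also within 50 kb of Cx3cl1, which encodes fractalkine. A site 62253 bp upstream of Eea1, an endosome tether, had 2.36 and 1.78 against 3.73 and 3.21 (adjusted p = 0.0765). In both the RelA values lay below the RelB values, which the choice of the largest differences favours. With reads of the fullest window the differences shrank to -0.51 at Ccl17 and -0.53 at Eea1 (limma adjusted p = 0.207 and 0.191).

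Towards RelA, a site 3151 bp upstream of Spsb1, a SOCS-box protein that promotes degradation of inducible nitric oxide synthase, had 3.57 and 3.68 with RelA against 2.5 and 1.97 with RelB (difference 1.48, limma adjusted p = 0.0502). A site 170749 bp upstream of Tbl1xr1, part of the NCoR corepressor, had 3.94 and 3.88 against 2.88 and 2.23 (adjusted p = 0.0579). At Cd47, the signal that restrains phagocytosis, a site 115001 bp from the start had 4.39 and 3.89 against 2.6 and 3.17 (adjusted p = 0.0665). Both RelA values exceeded both RelB values at all of them, which the choice of the largest differences favours. All of them passed with reads of the fullest window, at differences of 1.26, 1.25 and 1.02 (limma adjusted p = 1.10e-04, 1.22e-04 and 0.0032). None of them passed without centring, with quantile normalization or with the mean of several peaks. Over all alternatives the differences ranged from 1.13 to 1.75 at Spsb1, from 1.02 to 1.76 at Tbl1xr1 and from 1.02 to 1.59 at Cd47. The Spsb1 and Cd47 sites had no stretch shared by all 4 libraries, and the sites near Ccl17, Eea1 and Tbl1xr1 had 81, 47 and 26 bp.

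**Figure D4:**
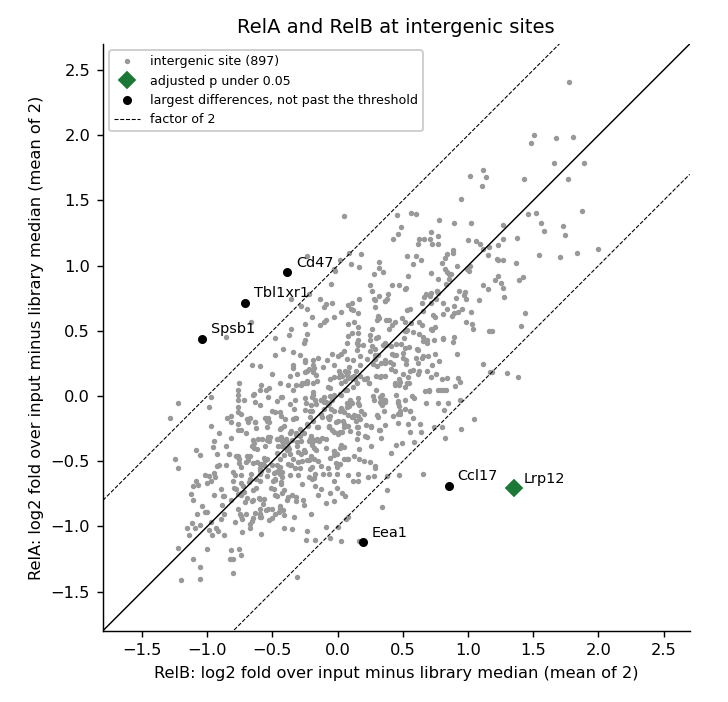
Mean log2 fold over input of the 2 RelA libraries (vertical axis) against that of the 2 RelB libraries (horizontal axis), each library minus its median, for the 897 intergenic sites. The solid line marks equal values and the dashed lines a factor of 2, and the Lrp12 site (green) is the one past the threshold.

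Intergenic sites were ranked more alike by libraries of the same antibody than by libraries of different antibodies. Spearman's rho over the 897 sites was 0.712 between the RelA libraries and 0.748 between the RelB libraries, and from 0.593 to 0.641 between a RelA and a RelB library. The sites share input reads in all of these pairs, and no p was computed. Peak centres of replicates were a median of 50 bp apart for RelA and 42 bp for RelB, and those of different antibodies between 49.5 and 52 bp.

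Within 50 kb of an intergenic site lay the starts of 853 of 22380 protein-coding genes (3.81%). Of 118 annotated genes on lists of NF-κB biology, 41 (34.7%) had such a site, another 31 had only promoter or gene-body sites, and the 41 genes shared 32 strongest sites. These lists were drawn up with earlier results of the same data known, so nothing particular to them follows from the share. The 32 sites were taken as the strongest near each gene, so their median of 3.50 in mean log2 fold, against 3.20 over all 897, is in part the choice itself, and 24 (75%) had a κB match. None passed for RelA against RelB, with limma adjusted p from 0.0502 to 0.998, and 16 of 32 were on the RelA side.

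Genes on the list of ubiquitin and receptor signalling had intergenic sites at 9 of 15. Apart from Ripk2 they were Tnfaip3, Birc2, Birc3, Traf1, Traf2, Map3k14, Tnfrsf1b and Fas, and Birc2 and Birc3 shared a site. Tnfaip3 encodes A20, a ubiquitin-editing inhibitor of TNF signalling, and 3 intergenic sites had it as the nearest gene. The strongest of these, 41253 bp downstream of its start, had log2 folds of 3.63 and 3.01 with RelA against 3.56 and 3.93 with RelB. The site upstream of Tnfrsf1b, a TNF receptor, had 3.91 and 4.0 against 3.81 and 4.15. RelA and RelB values overlapped at both. Map3k14, the NIK kinase of the non-canonical pathway, had the weakest of the group, with a mean of 2.36.

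Of the NF-κB and IκB genes 2 of 10 had an intergenic site, and the other 8 had promoter or gene-body sites alone. A site 4159 bp upstream of Bcl3, a nuclear IκB protein that works with p50 and p52, had 3.93 and 3.45 with RelA against 4.35 and 4.53 with RelB. Both RelB values were higher there (limma adjusted p = 0.264). Nfkbia, which encodes IκBα, had its stronger site 45746 bp downstream of its start, with 3.79 and 3.38 against 3.57 and 3.30. It is part of a run of 3 sites over 13190 bp.

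Chemokine genes had sites at 8 of 15. Upstream of Ccl2, the monocyte chemoattractant, 4 sites with κB matches stood in a row over 13114 bp, from 28621 to 16011 bp before the start, and these sites are also within 50 kb of Ccl7. From far to near, their values were 3.72 and 3.68 with RelA against 3.18 and 4.15 with RelB, then 3.31 and 3.34 with 3.66 and 3.29. The other two had 3.10 and 3.45 with 2.6 and 3.30, and 4.36 and 4.72 with 3.80 and 4.30. The one nearest to the gene was the strongest of the row in both RelA libraries and in both RelB libraries.

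Cxcl1 and Cxcl2, neutrophil attractants, shared a site at chr5:91305234-91305473 with 3.57 and 3.09 with RelA against 3.62 and 3.37 with RelB. Ccl5 and Ccl9 shared another at 3.25 and 3.51 against 3.27 and 3.56. Ccl20 had a weaker site with a mean of 2.95 and no κB match within 100 bp.

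Among cytokine genes 5 of 17 had a site. Csf1 was the strongest, and Lif, a cytokine of the IL-6 family, had a run of 3 sites over 17644 bp, the strongest with 3.70 and 4.17 with RelA against 4.09 and 3.97 with RelB. Il1a and Il1b shared a site with 3.10 and 3.01 against 3.19 and 3.10. Il34, which acts on the receptor of Csf1, had a site with AP-1 and without κB at 3.86 and 3.23 against 3.50 and 3.35. Groups overlapped at the Lif and Il34 sites.

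Of the oxidative and prostanoid genes 2 of 7 had a site. Nos2, the inducible nitric oxide synthase, had 2 sites over 2363 bp, about 33449 and 31501 bp upstream, with means of 4.28 and 3.90. The first has 2 κB matches, both outside the window of 100 bp, and the one closer to the centre is GGGAATTCCC. It had 3.91 and 4.25 with RelA against 4.64 and 4.32 with RelB. It thus lay on the other side of the balance from most sites with that element within 100 bp. Fth1, ferritin heavy chain, had a site with a mean of 3.6.

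Antigen presentation and interferon genes had sites at 7 of 12. Tap1, Tap2, Psmb8 and Psmb9, peptide transporters and immunoproteasome subunits that lie together on chromosome 17, shared a single site with a mean of 3.17. Irf1 and H2-K1 had weaker ones, with means of 2.93 and 2.35.

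On the remaining lists, AP-1 genes had sites at 2 of 10, Junb and Fosl1, the latter with 4.31 and 3.91 with RelA against 4.65 and 4.35 with RelB at a site 15383 bp upstream. Adhesion and matrix enzymes had 2 of 10, with Icam1 at a mean of 3.61 and Has2 at 2.14, and survival genes 1 of 10, Mcl1, at 3.47. Collagen and other fibroblast matrix genes had 3 of 12, Col1a2, Sparc and Acta2, at 2.91, 2.22 and 3.77. The Acta2 site is also the one counted for Fas.

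**Figure D5:**
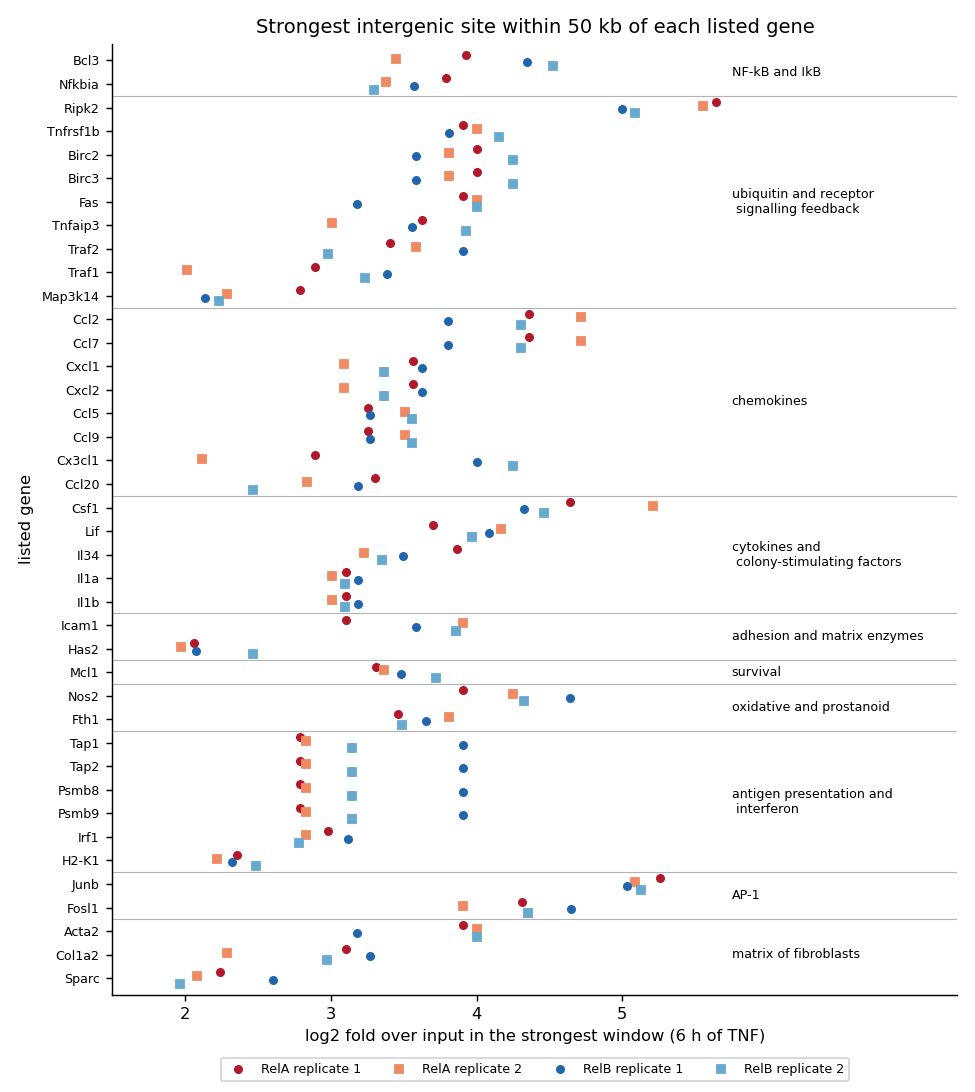
The log2 fold over input (horizontal axis) in each of the 4 libraries at 6 h for the strongest intergenic site within 50 kb of each listed gene that had one, ordered by list, with 1 gene left out. Genes that share a site show the same points, and Ripk2 and Junb stand highest, with both RelA values above those of all other genes but Csf1.

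Intergenic sites were mostly solitary. The median distance to the next site of the 1860 was 219812 bp, and 9.59% had one within 10 kb. There were 36 runs of intergenic sites less than 10 kb apart, which held 76 sites, and 3 runs had more than a pair. As the nearest gene, 655 genes had 1 intergenic site and 21 had 3 or more. Btg1, an antiproliferative gene, had the most, with 5 sites from 73846 to 307015 bp away and mean log2 folds from 2.53 to 4.66. Cited2, Cyp1b1, Jag1, the Notch ligand, and Klf6, a zinc finger factor, had 4 each, as did Ccl2. Myc had 3, with the strongest 10990 bp upstream at 4.21 and 3.82 with RelA against 3.87 and 3.72 with RelB.

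The class is defined by protein-coding genes, and 55 of its sites (6.13%) lay inside a non-coding gene or within 1 kb of its start. Of these, 45 were inside and 23 were at a long intergenic non-coding RNA. Besides the sites near Ripk2 and Cd69, a site inside 9630028H03Rik near Plcb4 was strong, with 4.09 and 4.39 with RelA against 4.46 and 4.52 with RelB.

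Chromosome X held 2 of the 897 sites (0.223%, Wilson 95% interval 0.0612 to 0.809%), although it is 6.28% of the genome length. That is 0.120 sites per 10 Mb, against 2.16 to 5.15 on single autosomes. X also took between 0.475% and 0.770% of all peaks in the 4 lists at 6 h, so the low number is not particular to intergenic sites, and a reason was not tested.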

How the data were processed

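RelA and RelB ChIP-seq peak lists of 8 libraries (NfkB2-/- MEFs, 0 h and 6 h of TNF) were analysed, and a list for the input was not used here. The authors trimmed reads (cutadapt), mapped them with Bowtie to mm9 retaining unique alignments, and ran cisGenome 2.0 on every library against input (200-bp windows, FDR below 0.1, fold above 2). The lists hold a deposited q-value (FDR) per peak, the log2 fold over scaled input that the authors computed in the strongest window, and deposited counts of ChIP and input reads without normalization. Total reads are not given in the sources used here.

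Peaks overlapping by at least 1 bp were merged, and site centres were placed on the GENCODE vM1 annotation of the same build (22380 protein-coding genes). Coordinates are as deposited. RelA and RelB were compared with limma 3.58.1 (R 4.3.3) on median-centred log2 folds of 1860 sites with Benjamini-Hochberg adjustment. Classes were compared with Fisher's exact test, adjusted over 8 tests, and with exact permutation over libraries, and intervals cover counting error only. The κB consensus (10 bases) and AP-1 (TGANTCA) were searched on both strands within 100 bp of centres. Scripts (matplotlib 3.10.9, pysam 0.24.0, scipy 1.17.1 and pandas 2.3.3 under Python 3.11.15) were tested on simulated data.

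Sites were named by rule: the 10 strongest, those past limma and the 3 largest differences either way, 3 on each side of 1 kb, the 3 with most κB matches and with most input reads, and the strongest site per listed gene. Members, lists and rules were chosen with earlier results of these data known, and elements, runs and X were described after seeing values. Alternatives covered thresholds, class limits, normalization, windows, the replicate block and leaving out each library. Values of 1 listed gene are not reported here, though it stays in the counts.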

Additional observations from a re-analysis of the deposited data

How the results depend on the processing

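The number of intergenic sites stayed within 1.5 times under every alternative run, from 629 (FDR below 0.01) to 1098 (without RelA replicate 2). The limma count of 1 did not: it was 2 with the mean of several peaks, 60 with reads of the fullest window, and from 0 to 10 when a library was left out (0 without RelA replicate 1, RelB replicate 1 or RelB replicate 2, 10 without RelA replicate 2), and it was 0 when the peaks of all 4 libraries had to share 1 bp (added after seeing the data), with 94 sites at an unadjusted p below 0.05. Where a library was left out, the lone library was assumed to vary like the others, and a count of 0 there does not show equal binding. With the replicate number as a block (replicate block) 33 were called (3.68%), 12 with RelA higher, against 4.57% of all sites, and all 6 sites named for their difference passed. Replicate deviations of RelA and of RelB correlated at -0.02. The labels do not say whether libraries of the same replicate number were paired. The correlation cannot decide it, because counting error is part of every value. Without centring and with quantile normalization the count stayed at 1. The causes of these changes were not tested.

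The strength difference to promoter sites, 0.01, became -0.00090 with fullest-window reads, ranged from -0.0411 to 0.0279 with a library left out, and was -0.046 with a shared base. Against gene-body sites, -0.02, it became 0.0176 with fullest-window reads and ranged from -0.0186 to 0.0153 with a library left out, with -0.0435 at FDR below 0.01 and -0.0686 with a shared base. The κB share against promoter sites ranged from -10.6 to -5.97 percentage points and against gene-body sites from -4.80 to -3.90 with a library left out, and the latter reached adjusted p = 0.0467 without RelA replicate 2. The AP-1 share against gene-body sites became 2.63 points within 250 bp and ranged from -1.09 to 0.24. AP-1 against promoter sites kept its direction and call in all 7 alternatives. Genes near a site numbered 165 within 10 kb and 1625 within 100 kb. Among sites named for their difference none changed sign.

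The repeat share of the classes was planned and not run, because the genome used here carries no repeat marks. Depth is known only as reads in peaks, so that weak binding, above all at 0 h, was not detectable.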

Other observations

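The intergenic sites with most input reads were those near Ube2v1, Armc2 and Hacl1, with up to 49, 44 and 39 input reads in a library. Their mean log2 folds were 3.62, 4.33 and 3.71. At Armc2 the RelA replicate 2 peak held 157 ChIP and 44 input reads, whereas the other libraries had between 59 and 65 ChIP reads and 14 input reads, and the folds were 4.26 and 4.51 for RelA and 4.29 and 4.26 for RelB.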
